A study of Homo sapiens with 9 samples.

Results

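The RNA-binding proteins that set the splicing pattern of neurons were followed in LAN5, a MYCN-amplified human neuroblastoma cell line that grows as immature sympathetic neuroblasts. The 10 genes were ELAVL2, ELAVL3 and ELAVL4 (the neuronal ELAVL proteins), RBFOX1, RBFOX2 and RBFOX3, NOVA1 and NOVA2, and PTBP1 and PTBP2. They were listed by name, as members of known families, and all 10 were present among the 25084 genes of the deposited expression table. The cells were electroporated with 1 of 3 siRNAs and collected after 72 h, in medium with fetal calf serum: a control (siCTR), one directed at MYCN (siMYCN, numbered 2 in the labels) or one directed at HAND2 (siHAND2, numbered 3). Each group had 3 RNA-seq libraries, all cells came from the same line, and a single siRNA stood for each target. MYCN is the driver oncogene of this tumor, and HAND2 is a basic helix-loop-helix factor of the sympathetic lineage. The labels do not say whether the 3 libraries of a group came from separate cultures, so p-values measure only the spread between these libraries, which may be technical.

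Alternative splicing in neurons is governed by a small number of protein families that bind short motifs beside regulated exons. PTBP1 holds neuronal exons back in most non-neuronal and progenitor cells, and among the exons it represses is one that PTBP2 needs for a stable transcript. As neurons form, miR-124 lowers PTBP1, PTBP2 takes its place, and later RBFOX and NOVA proteins promote or block exons according to where they bind. The neuronal ELAVL proteins bind uridine-rich elements, stabilise neuronal mRNAs and also act on splicing. RBFOX3 is the antigen known as NeuN, a marker of mature neurons. ELAVL1 and PTBP3, the widely expressed relatives of the ELAVL and PTBP families, were read beside the 10 genes. The values are totals for each gene, so the inclusion of single exons was not measured.

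Because MYCN with its partner MAX binds the E-box letters CACGTG, and HAND2 with E proteins binds the form CATCTG, which reads as CAGATG on the other strand, the promoters were searched for both. RefSeq promoter windows on GRCh38.p14, each holding 250 bases before and 50 bases after a start site, were at hand for 8 of the 10 genes with 37 windows in all, and none was at hand for ELAVL3 or RBFOX2. CACGTG was found in 3 of these 37 windows (8.11%), beside 7.26% of all 35116 windows. CATCTG on either strand was found in 9 of 37 (24.3%), beside 14.7% of all windows, and windows of 1 gene can overlap and so share a match. The general E-box CANNTG, which covers both of the others, was in 26 of 37 (70.3%), beside 68.7% of all. The 250 bases before the start are shown for PTBP2, one of the genes that were higher after both knockdowns, for its antagonist PTBP1, and for the gene with the largest change after siMYCN (RBFOX1), with any match to CATCTG on either strand in capitals.
PTBP2, chr1:96722388-96722637, plus strand: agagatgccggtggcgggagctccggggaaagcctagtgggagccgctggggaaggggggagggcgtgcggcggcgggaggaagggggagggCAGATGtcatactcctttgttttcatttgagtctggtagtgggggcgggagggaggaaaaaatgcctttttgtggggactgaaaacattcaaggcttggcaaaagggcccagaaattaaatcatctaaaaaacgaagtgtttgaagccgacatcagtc
PTBP1, chr19:797202-797451, plus strand: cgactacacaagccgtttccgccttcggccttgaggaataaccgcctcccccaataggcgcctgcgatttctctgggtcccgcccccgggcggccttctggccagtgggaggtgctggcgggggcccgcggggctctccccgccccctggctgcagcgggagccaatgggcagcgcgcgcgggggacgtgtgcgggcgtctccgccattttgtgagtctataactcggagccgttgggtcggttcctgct
RBFOX1, chr16:6019453-6019702, plus strand: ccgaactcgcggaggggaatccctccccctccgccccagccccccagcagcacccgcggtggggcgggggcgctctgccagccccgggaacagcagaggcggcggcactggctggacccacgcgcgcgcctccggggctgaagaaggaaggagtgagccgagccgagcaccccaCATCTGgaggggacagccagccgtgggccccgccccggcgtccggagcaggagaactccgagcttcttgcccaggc

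On GRCh38, as the table gives them, ELAVL4 lies on chromosome 1 (50024029 to 50203772, plus strand), ELAVL2 on chromosome 9 (23690104 to 23826337, minus strand) and ELAVL3 on chromosome 19 (11451326 to 11481046, minus strand). PTBP1 lies on chromosome 19 (797075 to 812327, plus strand) and PTBP2 on chromosome 1 (96721665 to 96823738, plus strand). RBFOX3 lies on chromosome 17 (79089345 to 79516148), NOVA1 on chromosome 14 (26443090 to 26598033) and NOVA2 on chromosome 19 (45933734 to 45973865), all on the minus strand. The PTBP2 window holds CAGATG with its first base 158 bases before the start, and the RBFOX1 window holds CATCTG with its first base 76 bases before the start. These letters are absent from both strands of the PTBP1 stretch shown, as is CACGTG from all 3 stretches. Other RBFOX1 windows hold further matches: the one at chr16:6483136-6483435 has CACGTG from 29 bases after the start as well as CATCTG, and the one at chr16:7509872-7510171 has 3 CATCTG matches. The GC content was 55.2% for PTBP2, 69.2% for PTBP1 and 74.8% for RBFOX1. All 3 stretches lie inside the gene spans given in the expression table, which start further upstream, and RBFOX1 has 5 such windows and PTBP1 has 2. Of several windows, the one shown was the first by position with a match before the start, and otherwise the first by position. The RBFOX1 stretch was thus chosen for holding a match, and nothing is read from its contrast with PTBP1. A match in these letters is a description of the sequence and not a measured binding site.

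Depth was estimated from the most frequent low value in each library, refined so that most low values were whole multiples of it. It was 21.07 M reads (siCTR 3) to 32.71 M (siCTR 1). Counting error alone then gives a coefficient of variation of 17.5% to 21.8% at 1 CPM (reads scaled to a common total in every library), the unit of the table. Libraries of the same group correlated at 0.994 to 0.998 over the log2 values. MYCN, the target of siMYCN, was at 1848, 1894 and 1786 CPM in the siCTR libraries and at 1338, 1245 and 1285 CPM after siMYCN, 70.0% of the control mean. HAND2 was at 516, 499 and 489 CPM in siCTR and at 268, 267 and 280 CPM after siHAND2, 54.2% of the control mean. MYCN was lower still after siHAND2, at 898, 969 and 877 CPM (49.6%), so the siHAND2 libraries were lower in both targets, while HAND2 was higher after siMYCN (114% of siCTR).

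In bulk RNA, fewer cells of a type and less RNA per cell cannot be told apart, so markers of cell types were read beside the regulators. The 8 sympathoadrenal neuroblast markers, such as TH and STMN2, summed to 1250 to 1370 CPM with siCTR, 1730 to 1790 CPM with siMYCN and 1400 to 1570 CPM with siHAND2. In the test described below, 7 of these 8 were higher and none lower after siMYCN, and 3 were higher and 3 lower after siHAND2. Those higher after siHAND2 were STMN2 (194% of siCTR), NEFL (185%) and NEFM (273%), and those lower were TH (48.6%), DBH (49.4%) and DDC (84%). The siHAND2 sum thus covers opposite movements within the list. Of 7 mesenchymal markers, whose sum was 222 to 238 CPM with siCTR, 268 to 277 CPM with siMYCN and 555 to 634 CPM with siHAND2, 6 could be tested: 4 were higher after siMYCN and 5 after siHAND2. Of the Schwann and glial markers 4 of 7, and of the blood and endothelial markers 5 of 6, stayed under 1 CPM in all 9 libraries, and no marker was at 0 in all 9. The glial sum, 98.2 to 106 CPM with siCTR, was 152 to 157 CPM with siMYCN and 35.1 to 37 CPM with siHAND2, and PMP22 was the only gene of that list high enough to be tested. The sympathoadrenal and mesenchymal sums thus moved in the same comparisons as the regulators, and their part in the results below was not tested.

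**Figure D1:**
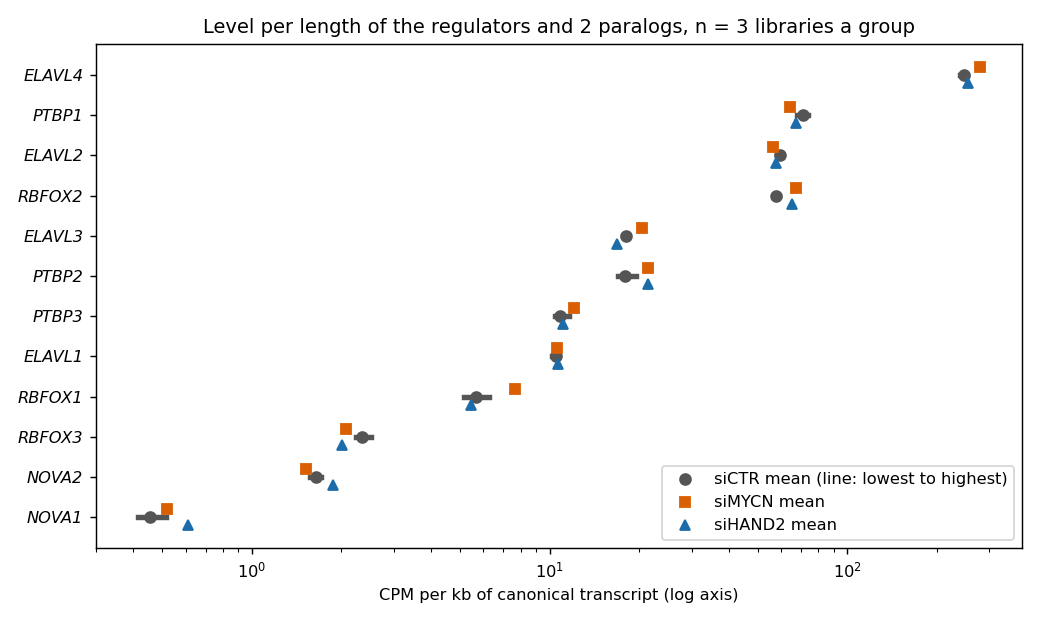
Mean level per kilobase of the 10 regulators and the paralogs ELAVL1 and PTBP3 (x axis, log scale, CPM per kb of the canonical transcript), in siCTR (circle, with a line from the lowest to the highest of 3 libraries), siMYCN (square) and siHAND2 (triangle). ELAVL4 stood highest at 246 CPM per kb in siCTR and NOVA1 lowest at 0.455 CPM per kb, and the 3 symbols of each gene lie close together on this scale.

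To compare levels between genes, CPM was divided by the length of each gene's canonical transcript. In siCTR cells ELAVL4, also known as HuD, was highest at 246 ± 6.03 CPM per kb (SD, n = 3). PTBP1 followed at 70.9 ± 2.94 CPM per kb, and ELAVL2 (59.2 ± 1.10) and RBFOX2 (57.8 ± 1.15 CPM per kb) came next with ranges that overlapped. ELAVL3 (18.0 ± 0.242) and PTBP2 (18.0 ± 1.3 CPM per kb) also overlapped, as did the paralogs PTBP3 (10.9 ± 0.652) and ELAVL1 (10.5 ± 0.221 CPM per kb). RBFOX1 stood at 5.68 ± 0.537 CPM per kb, RBFOX3 at 2.35 ± 0.151, NOVA2 at 1.64 ± 0.0722 and NOVA1 at 0.455 ± 0.0535 CPM per kb. By this measure the progenitor type repressor PTBP1 was thus second of the group after neuronal ELAVL4, and the NeuN gene RBFOX3 was near the bottom. Before division by length, RBFOX2 (417 mean CPM in siCTR) and ELAVL2 (236 CPM) stood above PTBP1 (227 CPM). The rank of PTBP1 thus rests on the lengths used, and the transcripts present in LAN5 were not measured.

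Each family was led by 1 member in every group. ELAVL4 made up 73.7% of the per-kilobase level of the 4 ELAVL genes in siCTR, 76.2% in siMYCN and 74.8% in siHAND2 libraries. RBFOX2, the RBFOX gene that is also widely expressed outside neurons, made up 87.8%, 87.4% and 89.7% of its family in the same order. NOVA2 made up 78.3%, 74.5% and 75.5% of the NOVA pair. In the PTBP family, PTBP1 had 71.1% in siCTR, 65.6% in siMYCN and 67.3% in siHAND2 libraries, and PTBP2 had 18.1%, 22.0% and 21.5%.

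For the comparisons between groups, a linear model was fitted with limma to log2(CPM + 1) of the 14495 genes that reached 1 CPM in at least 3 libraries, with Benjamini-Hochberg adjustment of the p-values across all of them and a threshold of 0.05. All 10 regulators were high enough to be tested. Fold changes are differences of log2(CPM + 1), which understates changes of low genes such as NOVA1. The 3 comparisons share libraries, and so are given side by side and not as independent evidence.

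After siMYCN, 5 of the 10 regulators were higher than in siCTR and none was lower by this test: ELAVL3, ELAVL4, RBFOX1, RBFOX2 and PTBP2. Over all genes tested, 35.9% passed, 24.5% higher and 11.4% lower. The groups did not overlap for 6 of 10 regulators, beside 49.5% of all genes, and with 10 genes these counts do not set the regulators apart from the table as a whole. The median log2 fold change of the 10 was 0.165, beside 0.06 over all genes, and the median size among the 5 that passed was 0.22, beside 0.29 for all genes that passed. The directions depended in part on the scaling. When libraries were rescaled by median ratios or quantiles, ELAVL3 did not pass, and ELAVL2 and PTBP1 passed as lower. With quantiles NOVA2 also passed as lower.

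After siHAND2, 3 of the 10 were higher and none was lower: RBFOX2, NOVA1 and PTBP2. The background was 29.9% of all genes, 18.1% higher and 11.8% lower, so 3 of 10 is the share found over the whole table. The groups did not overlap for 5 of 10, beside 42.4% of all genes. The median log2 fold change of the 10 regulators was 0.006, beside 0.039 over all genes.

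Between the knockdowns themselves, 1 regulator (NOVA2) was higher and 3 (ELAVL3, ELAVL4 and RBFOX1) were lower after siHAND2 than after siMYCN. Over all genes tested 26.9% passed this comparison, 11.4% higher and 15.5% lower. The groups did not overlap for 4 of 10 regulators, beside 38.7% of all genes. This comparison is the direct test of a difference between the knockdowns. It is given below for each of the 10 regulators that passed against siCTR after only 1 knockdown. Genes of the other lists are given without it, so those named after only 1 knockdown are not shown to differ between the knockdowns.

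**Figure D2:**
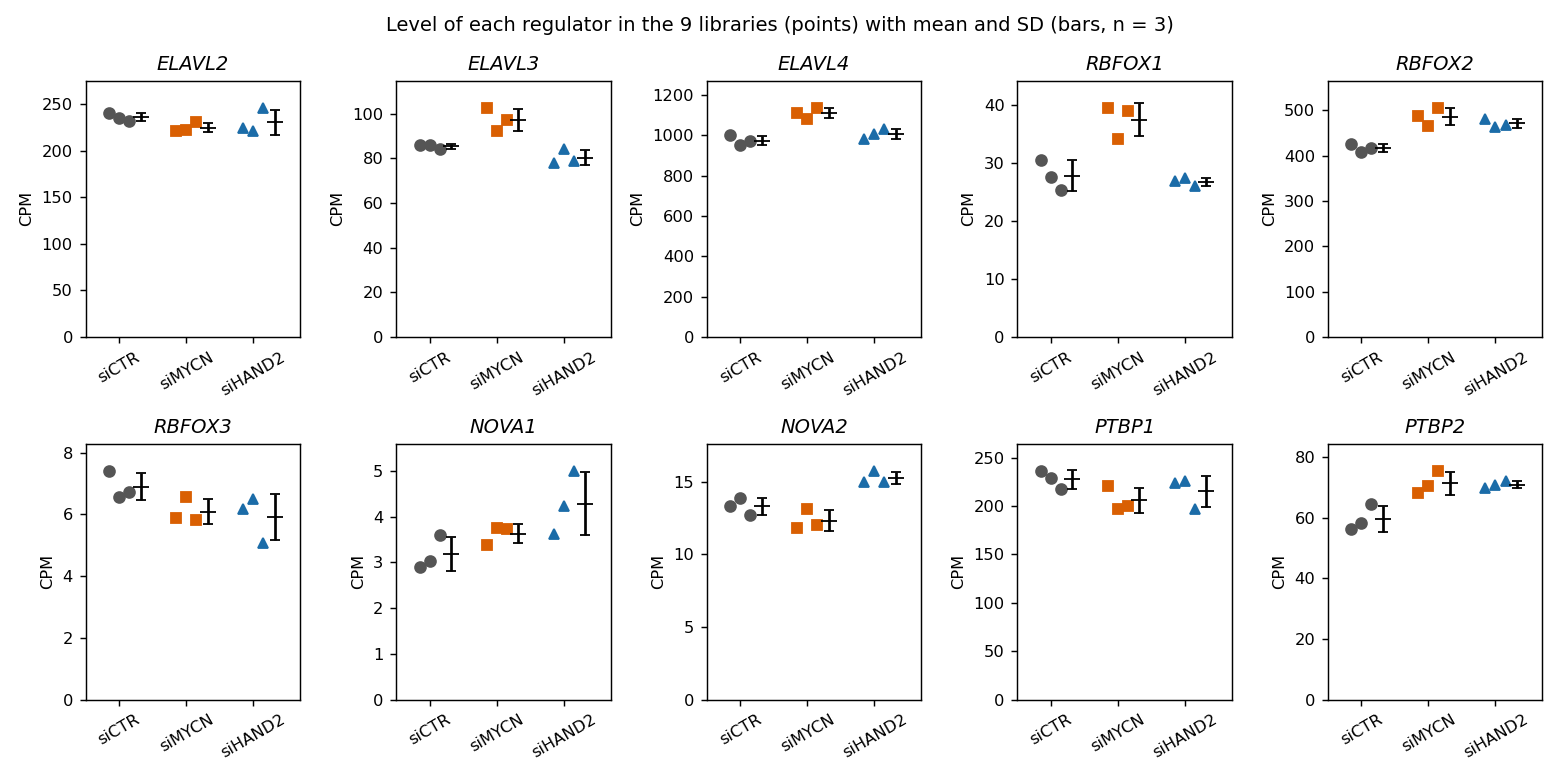
CPM of each regulator (y axes from 0, scaled separately for each gene) in the 3 siCTR (circles), 3 siMYCN (squares) and 3 siHAND2 libraries (triangles), with the mean and SD beside each group. RBFOX1 lies between 34.1 and 39.3 CPM in the siMYCN libraries and at or under 30.5 CPM in the other 6, and PTBP2 lies higher in all 6 knockdown libraries than in the siCTR libraries.

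PTBP2, the neuronal PTB protein that delays the adult splicing pattern until neurons mature, was higher after both knockdowns. Its 3 siCTR libraries read 56.4, 58.2 and 64.6 CPM, the siMYCN libraries 68.1, 70.5 and 75.4 CPM, and the siHAND2 libraries 69.9, 70.7 and 72.3 CPM. Every knockdown library lay above every control library. The mean was 119% of siCTR in both cases, with a log2 fold change of 0.25 (SE 0.055, limma adjusted p = 0.0019) after siMYCN and 0.25 (SE 0.055, limma adjusted p = 0.00283) after siHAND2. The difference between the knockdowns was -0.006, with a 95% interval of -0.12 to 0.11 (limma adjusted p = 0.945).

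PTBP1, the repressor whose loss releases neuronal exons, read 236, 229 and 217 CPM with siCTR, 221, 196 and 200 CPM with siMYCN and 223, 225 and 197 CPM with siHAND2. The highest siMYCN library lay among the controls, and so did the highest pair of siHAND2 libraries. The log2 fold change was -0.145 after siMYCN (95% interval -0.27 to -0.02, limma adjusted p = 0.0578), just outside the threshold, and -0.08 after siHAND2 (-0.20 to 0.04, limma adjusted p = 0.303). PTBP1 was lower in 3 of 3 same-numbered pairs after siMYCN, and with the replicate block it passed (-0.145, SE 0.042, limma adjusted p = 0.0091). The siMYCN value passed in 7 of 18 alternative fits, the replicate block among them. It was lowest under median-ratio rescaling (-0.20, limma adjusted p = 0.0175) and quantile normalization (-0.21, limma adjusted p = 0.0119). It also passed in a fit of only the 2 groups compared (-0.145, limma adjusted p = 0.0225). The other passing fits were those without siCTR 3 (-0.18, limma adjusted p = 0.0459), without siMYCN 1 (-0.20, limma adjusted p = 0.0183) and without siHAND2 3 (-0.145, limma adjusted p = 0.017). PTBP3, the third family member, was at 83.5, 75.7 and 75.1 CPM with siCTR, at 84.0, 84.2 and 93.2 CPM with siMYCN and at 74.8, 80.1 and 84.0 CPM with siHAND2. Its rise after siMYCN (0.16, SE 0.057, limma adjusted p = 0.0441) was lost in 9 of 18 alternatives, 5 of them without siCTR 2 (0.13), siCTR 3 (0.13), siMYCN 2 (0.18), siMYCN 3 (0.11) or siHAND2 2 (0.16), and its value after siHAND2 was 0.03 (limma adjusted p = 0.755). The direct difference of siHAND2 from siMYCN was -0.13 (95% interval -0.25 to -0.01, limma adjusted p = 0.112), which passed without siHAND2 3 (-0.17, limma adjusted p = 0.0451).

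The balance of PTBP2 to PTBP1 within a library was taken as the log2 ratio of their CPM + 1. It was -1.91 ± 0.161 in siCTR (SD, n = 3), -1.51 ± 0.151 in siMYCN and -1.58 ± 0.133 in siHAND2 libraries. The siCTR libraries spanned -2.05 to -1.73, the siMYCN libraries -1.68 to -1.39 and the siHAND2 libraries -1.66 to -1.43, so both knockdowns lay above the controls. The differences were 0.40 and 0.33, each with an exact two-sided permutation p = 0.10, the smallest that 3 libraries against 3 can give, and an adjusted p = 0.133 over the 12 ratio tests made. With 3 libraries a group no ratio in this family of tests could pass the threshold of 0.05. In same-numbered pairs the ratio was higher in 3 of 3 after each knockdown (exact sign-flip permutation p = 0.25, the smallest that 3 pairs can give).

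**Figure D3:**
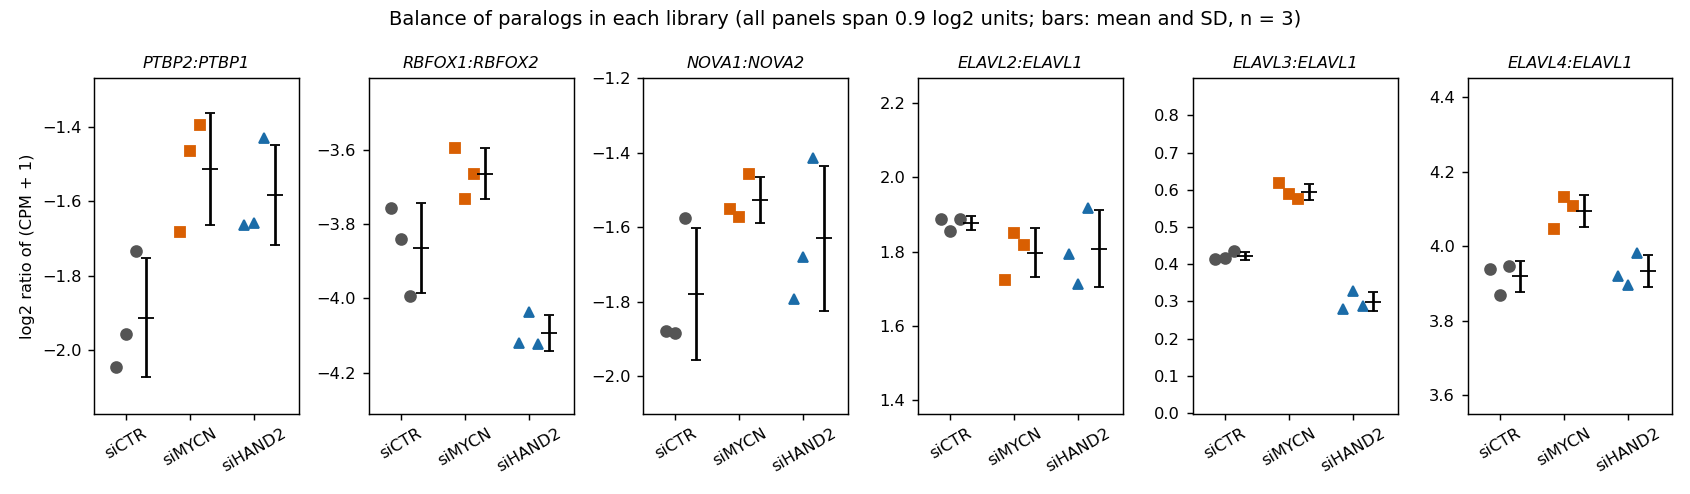
Log2 ratio of (CPM + 1) of 6 pairs of family members (y axes, each spanning the same number of log2 units) in the 9 libraries, with mean and SD (n = 3). The PTBP2 to PTBP1 ratio is higher in all 6 knockdown libraries than in siCTR, while RBFOX1 to RBFOX2 and ELAVL3 to ELAVL1 are higher after siMYCN and lower after siHAND2.

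RBFOX1, a splicing factor found mainly in neurons and muscle, had the largest change of the 10 genes. It read 30.5, 27.6 and 25.2 CPM with siCTR, 39.3, 34.1 and 38.8 CPM with siMYCN and 26.8, 27.3 and 25.9 CPM with siHAND2. The siMYCN libraries stood above all others, and the siHAND2 libraries lay inside the control range. The mean rose to 135% of siCTR after siMYCN, a log2 fold change of 0.42 (SE 0.07, limma adjusted p = 0.00023). After siHAND2 the value was -0.05 (95% interval -0.20 to 0.10, limma adjusted p = 0.619), and siHAND2 was lower than siMYCN by 0.47 (SE 0.07, limma adjusted p = 8.42e-05).

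RBFOX2 read 425, 408 and 417 CPM with siCTR, 487, 467 and 504 CPM with siMYCN and 482, 464 and 468 CPM with siHAND2. All 6 knockdown libraries lay above the controls. The mean was 117% of siCTR after siMYCN (log2 fold change 0.22, SE 0.04, limma adjusted p = 0.00051) and 113% after siHAND2 (0.18, SE 0.04, limma adjusted p = 0.00346). The knockdowns differed by -0.04, with a 95% interval of -0.13 to 0.04 (limma adjusted p = 0.465).

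RBFOX3, whose product is the NeuN antigen, was low and did not pass the test in any comparison. It read 7.40, 6.55 and 6.74 CPM with siCTR, 5.88, 6.56 and 5.83 CPM with siMYCN and 6.18, 6.49 and 5.07 CPM with siHAND2. The siHAND2 libraries lay just below the controls without overlap and 1 siMYCN library lay among the controls. The log2 fold changes were -0.16 (95% interval -0.36 to 0.05, limma adjusted p = 0.222) and -0.20 (-0.40 to 0.01, limma adjusted p = 0.135).

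After siMYCN the log2 fold change of RBFOX1 (0.42) was larger than that of RBFOX2 (0.22), and after siHAND2 it was smaller (-0.05 and 0.18). Their ratio thus differed from the controls in opposite directions, though neither difference could pass the threshold. The log2 ratio of RBFOX1 to RBFOX2 was -3.86 ± 0.12 in siCTR (SD, n = 3), higher by 0.20 after siMYCN and different by -0.23 after siHAND2. Neither knockdown overlapped the controls (exact two-sided permutation p = 0.10 and adjusted p = 0.133 in both cases). RBFOX1 spans a long region of chromosome 16 (5239802 to 7713340, plus strand) that holds 9 further genes of the table, the highest of which, AC006112.1, was at 2.64 CPM with siCTR, 3.03 with siMYCN and 3.35 with siHAND2. RBFOX2 (chromosome 22, 35738736 to 36028824, minus strand) overlaps Z82217.1 on the other strand, at 2.10, 1.90 and 4.03 CPM. The sources used here do not say whether the counting used strand or how reads shared by overlapping genes were assigned. These neighbours were low beside the RBFOX genes.

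ELAVL4, the most abundant regulator, read 1000, 953 and 971 CPM with siCTR, 1111, 1084 and 1134 CPM with siMYCN and 983, 1009 and 1031 CPM with siHAND2. The siMYCN libraries lay above all others, and the siHAND2 libraries overlapped the controls. It rose to 114% of siCTR after siMYCN (log2 fold change 0.19, SE 0.04, limma adjusted p = 0.00189), while after siHAND2 the value was 0.05 (95% interval -0.04 to 0.13, limma adjusted p = 0.405). It was lower by 0.14 after siHAND2 than after siMYCN (SE 0.04, limma adjusted p = 0.0173). That last call was lost in 5 of 18 alternatives, among them without siMYCN 1 (-0.14, limma adjusted p = 0.0589), without siMYCN 3 (-0.12, limma adjusted p = 0.0691) and without siHAND2 1 (-0.12, limma adjusted p = 0.063). After rescaling by quantile normalization ELAVL4 also passed after siHAND2 (0.14, limma adjusted p = 0.00356).

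ELAVL3 (HuC), which appears as neurons leave the cell cycle, read 86.1, 86.1 and 84.1 CPM with siCTR, 102, 92.2 and 97.0 CPM with siMYCN and 77.9, 84.1 and 78.7 CPM with siHAND2. The siMYCN group was the highest without overlap, and the siHAND2 libraries were at or below the controls, with the highest of them level with the lowest control. The rise after siMYCN was 0.18 (SE 0.048, limma adjusted p = 0.00734), and it fell short of the threshold when libraries were rescaled by median ratios (0.12, limma adjusted p = 0.0619) or quantiles (0.13, limma adjusted p = 0.0518). After siHAND2 the value was -0.09 (95% interval -0.19 to 0.01, limma adjusted p = 0.172). The direct difference was larger than either: ELAVL3 was lower by 0.27 after siHAND2 than after siMYCN (SE 0.048, limma adjusted p = 0.000415).

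ELAVL2 (HuB) was the neuronal ELAVL gene that did not pass in any comparison. It read 241, 235 and 232 CPM with siCTR, 221, 222 and 231 CPM with siMYCN and 224, 221 and 245 CPM with siHAND2. The siMYCN libraries lay narrowly below the controls, and siHAND2 3 lay above them. Its log2 fold changes were -0.07 (95% interval -0.16 to 0.02, limma adjusted p = 0.24) and -0.04 (-0.13 to 0.06, limma adjusted p = 0.581), and the first passed the threshold after median-ratio rescaling (-0.13, limma adjusted p = 0.025) and quantile normalization (-0.12, limma adjusted p = 0.0254).

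Against ELAVL1 (HuR), the widely expressed family member at 64.3, 64.3 and 62.0 CPM with siCTR, 66.3, 61.0 and 64.8 CPM with siMYCN and 64.0, 66.8 and 64.3 CPM with siHAND2, the neuronal members moved unequally. ELAVL1 itself had log2 fold changes of 0.01 (95% interval -0.09 to 0.11) and 0.03 (-0.07 to 0.13). The log2 ratio of ELAVL3 to ELAVL1 was 0.42 ± 0.011 in siCTR, 0.59 ± 0.023 in siMYCN and 0.30 ± 0.025 in siHAND2 libraries (SD, n = 3), with no overlap on either side. That of ELAVL4 to ELAVL1 was higher by 0.18 after siMYCN without overlap and by 0.015 after siHAND2 with overlap. For ELAVL2 the ratio differed by -0.08 after siMYCN without overlap and by -0.07 after siHAND2 with overlap. The exact two-sided permutation p was 0.10 for each ratio without overlap, and 0.80 and 0.40 for ELAVL4 and ELAVL2 after siHAND2.

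Per kilobase, the NOVA genes were the lowest of the group. NOVA2, the NOVA protein of the forebrain, read 13.4, 13.9 and 12.7 CPM with siCTR, 11.8, 13.2 and 12 CPM with siMYCN and 15, 15.7 and 15 CPM with siHAND2. The siHAND2 libraries lay above all others, and the siMYCN libraries overlapped the controls. Against siCTR it did not pass after siMYCN (-0.10, 95% interval -0.25 to 0.04, limma adjusted p = 0.255) and was just outside the threshold after siHAND2 (0.18, 0.04 to 0.33, limma adjusted p = 0.0554). After quantile normalization NOVA2 passed as lower after siMYCN (-0.18, limma adjusted p = 0.0438). After siHAND2 it was higher in 3 of 3 same-numbered pairs, and with the replicate block it passed (limma adjusted p = 0.0421). It was higher after siHAND2 than after siMYCN by 0.29 (SE 0.068, limma adjusted p = 0.00501).

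NOVA1, the NOVA protein of hindbrain and spinal cord, read 2.90, 3.03 and 3.61 CPM with siCTR, 3.38, 3.76 and 3.74 CPM with siMYCN and 3.62, 4.22 and 5.00 CPM with siHAND2. The lowest siHAND2 library lay level with the highest control, and the siMYCN libraries overlapped both groups. The value after siMYCN was 0.15 (95% interval -0.09 to 0.38, limma adjusted p = 0.323). After siHAND2 it passed at 0.33 (SE 0.111, limma adjusted p = 0.0336), 135% of siCTR, but this call was lost in 7 of the 17 alternatives that kept the gene. Without siCTR 1 it was 0.28, without siCTR 2 0.31, without siHAND2 2 0.335 and without siHAND2 3 0.24, with limma adjusted p values of 0.121, 0.104, 0.0763 and 0.139. The direct difference of siHAND2 from siMYCN did not pass (0.18, 95% interval -0.05 to 0.42, limma adjusted p = 0.246). The log2 ratio of NOVA1 to NOVA2, -1.78 ± 0.178 in siCTR, was higher by 0.25 after siMYCN with groups that just did not overlap (exact two-sided permutation p = 0.10) and by 0.15 after siHAND2 with overlap (exact two-sided permutation p = 0.50). As the genes are low, these differences depend on the 1 added to CPM, and with 5 added they were 0.16 and 0.04.

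**Figure D4:**
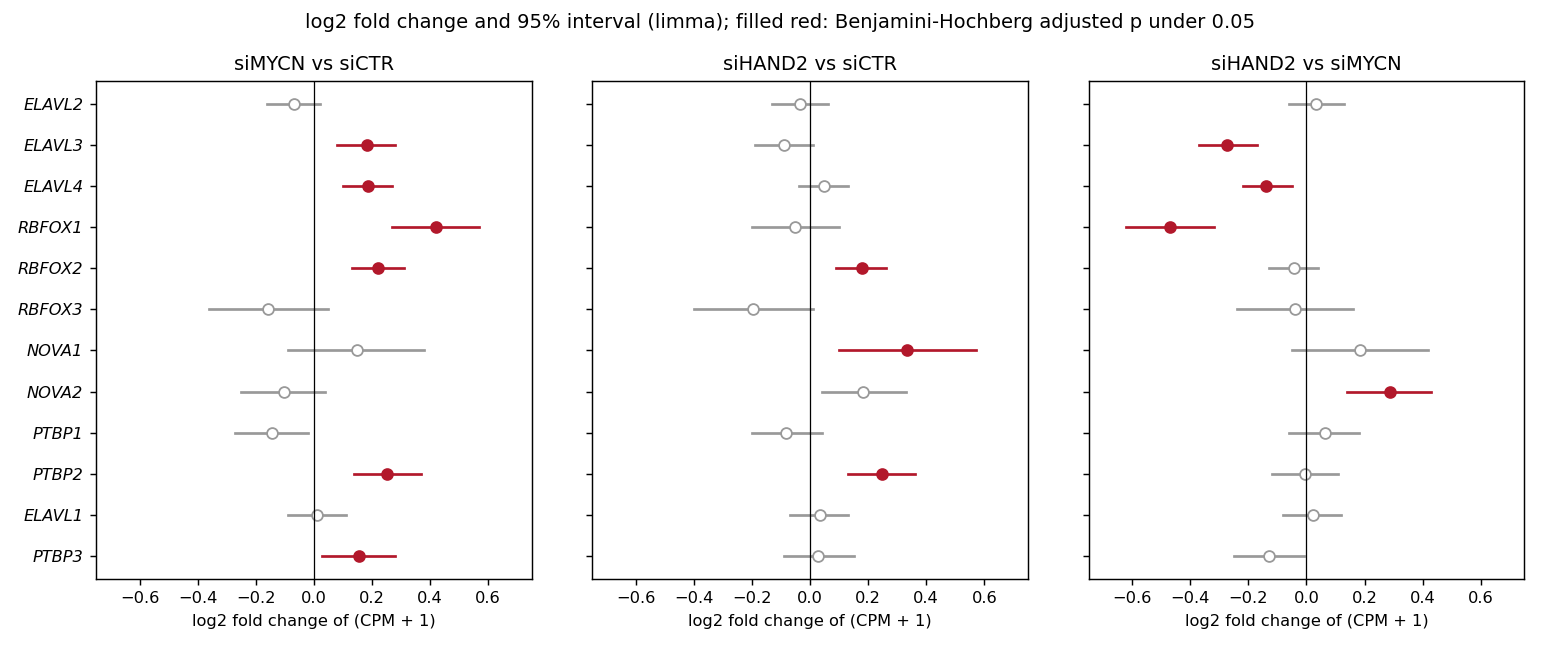
Log2 fold change of (CPM + 1) with its 95% interval (limma) for the 10 regulators, ELAVL1 and PTBP3 in the 3 comparisons (panels). Filled red points passed a Benjamini-Hochberg adjusted p of 0.05 over all genes. PTBP2 and RBFOX2 are filled in both comparisons with siCTR, and ELAVL3, ELAVL4 and RBFOX1 are filled to the right after siMYCN and to the left in siHAND2 against siMYCN.

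For the regulator with the smallest p in each comparison with siCTR, the genes with the most similar pattern were read as a description over the 9 libraries, among 11200 genes averaging 5 CPM or more. RBFOX1 was most like SLC35F6 (Pearson r = 0.991 between log2 values; 41.7, 50.9 and 40.9 mean CPM with siCTR, siMYCN and siHAND2), MED10 (r = 0.982) and BICD2 (r = 0.981). PTBP2 was most like ZSCAN21 (r = 0.986; 17.6, 20.1 and 20.2 mean CPM), AC132008.2 (r = 0.979) and WDFY3 (r = 0.977). All points share the same 9 libraries.

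Among other RNA-binding proteins that regulate alternative exons, from a list of CELF, MBNL, KHDRBS, SRRM and related genes, 27 could be tested. After siMYCN 8 were higher and 3 lower, beside 24.5% and 11.4% of all genes, with a median log2 fold change of 0.05, beside 0.06 over all genes. KHDRBS3, a STAR-family splicing factor also called SLM2, rose from 65.2 ± 1.29 to 98.5 ± 3.89 CPM (SD, n = 3; log2 fold change 0.59, limma adjusted p = 1.1e-07). CELF3, a brain CELF protein, rose from 27.5 ± 0.60 to 40.8 ± 3.01 CPM (0.55, limma adjusted p = 9.66e-06), and it was also higher after siHAND2 (0.23, limma adjusted p = 0.0154). MBNL2, a muscleblind protein of adult splicing patterns, fell from 44.5 ± 4.85 to 29.7 ± 1.00 CPM (-0.56, limma adjusted p = 2.44e-05).

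After siHAND2 9 of the 27 were higher and 6 lower, beside 18.1% and 11.8% of all genes, with a median of 0.08, beside 0.039 over all genes. SRRM4, an activator of neuronal microexons, rose from 12.7 ± 0.543 to 20.3 ± 0.288 CPM (0.63, limma adjusted p = 4.25e-06), and KHDRBS3 rose to 87.8 ± 2.32 CPM (0.425, limma adjusted p = 2.01e-06). SRRM3, of the same list, is named outside the rule with its values seen. It fell from 24.5 ± 0.734 to 20.05 ± 1.33 CPM (-0.28, limma adjusted p = 0.00332). CELF2 fell from 28.5 ± 0.595 to 18.7 ± 0.767 CPM (-0.59, limma adjusted p = 5.01e-07). SRRM4, KHDRBS3 and CELF2 were named for their small p in this comparison, which favours large changes. Their changes were larger than that of any of the 10 regulators in it, and nothing is read from this.

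The circuit upstream of PTBP1 comprises REST, which silences neuronal genes and miR-124 outside neurons, its cofactors and phosphatases, and the host transcripts of miR-124. Of 12 genes tested, 2 were higher and 2 lower after siMYCN (median 0.05), and 3 were higher and none lower after siHAND2 (median 0.08), beside 35.9% and 29.9% of all genes past the test. REST and RCOR2 are named outside the rule, with their values seen. REST itself did not pass, with 45.7 mean CPM with siCTR, 45.5 after siMYCN (log2 fold change -0.005, limma adjusted p = 0.964) and 49.8 after siHAND2 (0.12, limma adjusted p = 0.176). The REST cofactors RCOR3 after siMYCN (0.255, limma adjusted p = 0.00222) and, after siHAND2, RCOR1 (0.26, limma adjusted p = 0.00184) and RCOR3 (0.21, limma adjusted p = 0.0111) were higher, and the demethylase KDM1A fell after siMYCN (-0.15, limma adjusted p = 0.00832). RCOR2, their paralog, was lower after siMYCN (-0.19, limma adjusted p = 0.0191), a call lost without siCTR 2 (-0.16) and without siMYCN 2 (-0.18). LINC00599, a host transcript of miR-124, rose after siHAND2 from 21.8 ± 2.66 to 28.3 ± 3.03 CPM (0.36, limma adjusted p = 0.0076). The phosphatase CTDSPL was higher after siMYCN (0.19, limma adjusted p = 0.0127). RCOR3 after siHAND2 lost its call without siCTR 2 (0.16), and CTDSPL lost it without siCTR 3 (0.17) and under both rescalings.

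Transcripts known to carry exons or sites under these families were read for their gene-level amounts only. These lists hold some of the regulators themselves (RBFOX1 and RBFOX2 among RBFOX transcripts, NOVA1 among ELAVL-bound ones, and PTBP3 among PTBP ones), and GRIN1 stands in both the PTBP and RBFOX lists. After siMYCN 6 of 10 PTBP transcripts were higher and 2 lower (median 0.25), 7 of 11 RBFOX transcripts were higher and none lower (0.24), 5 of 8 NOVA transcripts were higher and none lower (0.295), and 5 of 11 ELAVL-bound transcripts were higher and 2 lower (0.15). After siHAND2 the counts were 4 higher and 2 lower (median 0.15), 6 and 1 (0.24), 4 and 2 (0.06), and 5 and 1 (0.055) in the same order. Of all genes, 24.5% were higher and 11.4% lower after siMYCN and 18.1% and 11.8% after siHAND2, with medians of 0.06 and 0.039, and nothing is read from the lists beyond these counts.

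**Figure D5:**
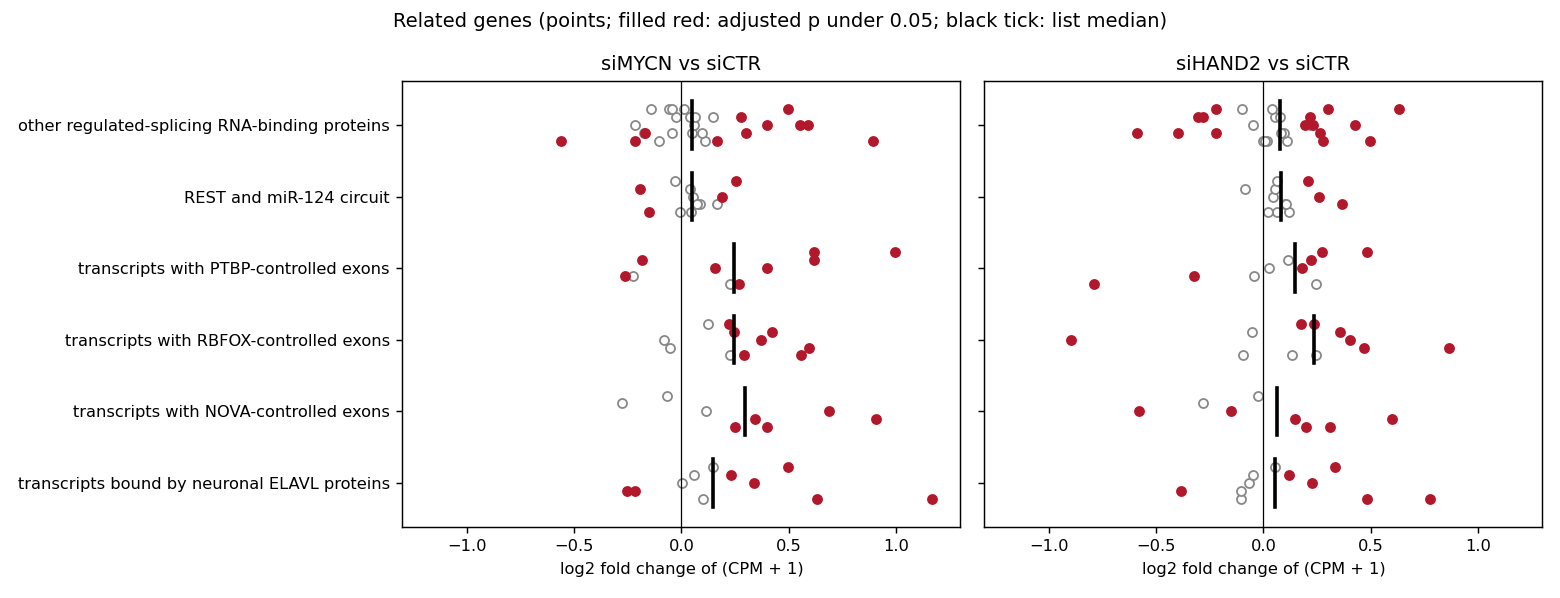
Log2 fold change of (CPM + 1) of the genes in 6 related lists (rows) after siMYCN (left) and siHAND2 (right), each point 1 gene, filled red where the adjusted p is under 0.05, with the list median as a black tick. The medians of the 4 lists of target transcripts lie between 0.15 and 0.295 after siMYCN and between 0.055 and 0.24 after siHAND2.

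Among PTBP transcripts, GABBR1, a GABA-B receptor subunit, rose from 14.5 ± 0.28 to 29.8 ± 0.551 CPM after siMYCN (0.99, limma adjusted p = 1.31e-08). The tropomyosin TPM1 and the kinase SRC, which carries a neuronal exon, both rose by 0.62 (limma adjusted p = 5.98e-07 and 7.72e-07). After siHAND2, TPM1 was higher by 0.48 (limma adjusted p = 6.33e-06), GABBR1 by 0.27 (limma adjusted p = 0.00197) and SRC by 0.22 (limma adjusted p = 0.00731). The actin crosslinker ACTN1 fell from 208 ± 7.77 to 120.1 ± 5.31 CPM (-0.79, limma adjusted p = 2.02e-09), and the pyruvate kinase gene PKM, whose isoforms PTBP1 selects, fell from 1381 ± 23.3 to 1104 ± 34.8 CPM (-0.32, limma adjusted p = 1.82e-05). With siMYCN, ACTN1 was instead higher than in siCTR (0.27, limma adjusted p = 0.000279), and PKM was lower there too (-0.26, limma adjusted p = 0.000137).

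Of the RBFOX transcripts, the ankyrins ANK2 and ANK3 rose after siMYCN by 0.56 and 0.59 (limma adjusted p = 5.3e-07 and 7.21e-06), and ANK3 also rose after siHAND2 by 0.86 (limma adjusted p = 9.62e-08). NRCAM, an axonal adhesion molecule, rose after siMYCN from 154.9 ± 3.06 to 200.7 ± 8.15 CPM (0.37, limma adjusted p = 0.000124) and fell after siHAND2 to 83.0 ± 8.36 CPM (-0.90, limma adjusted p = 7.4e-09). The catenin CTNND1 rose after siHAND2 (0.36, limma adjusted p = 0.000181) and after siMYCN (0.24, limma adjusted p = 0.00356).

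Of the NOVA transcripts, AGRN, the organiser of the neuromuscular synapse, rose by 0.40 after siMYCN (limma adjusted p = 0.00139) and by 0.31 after siHAND2 (limma adjusted p = 0.0095), the latter not without siCTR 3 (0.23). APLP2 was higher by 0.34 after siMYCN (limma adjusted p = 2.45e-05) and by 0.15 after siHAND2 (limma adjusted p = 0.0196). NEO1 was higher by 0.25 after siMYCN (limma adjusted p = 0.00377) and by 0.20 after siHAND2 (limma adjusted p = 0.0183). The siHAND2 call of NEO1 was lost in 6 of 18 alternatives, 4 of them without siCTR 2 (0.20), siCTR 3 (0.17), siHAND2 1 (0.18) or siHAND2 2 (0.18).

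ACHE, the acetylcholinesterase transcript that ELAVL4 binds, had the largest change of the ELAVL-bound transcripts, from 5.90 ± 0.287 to 14.5 ± 0.903 CPM after siMYCN (1.17, limma adjusted p = 4.43e-08). GAP43, the growth cone protein whose mRNA ELAVL4 stabilises, rose from 35.5 ± 1.79 to 55.5 ± 1.82 CPM after siMYCN (0.63, limma adjusted p = 3.99e-07) and to 61.4 ± 3.60 CPM after siHAND2 (0.77, limma adjusted p = 2.36e-08). MAPT, the tau gene, rose by 0.34 after siMYCN (limma adjusted p = 2.53e-05). After siHAND2, SATB1 rose by 0.48 (limma adjusted p = 1.64e-07).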

How the data were processed

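RNA-seq of 9 LAN5 libraries was deposited by the authors as 1 table of CPM (counts scaled to a common library total), with a constant of 0.0001 in each value. The submitters' processing notes name STAR 2.5.1, Partek and hg19/GRCh37. However, 91.4% of 18213 matched gene symbols start within 5000 bp of their GRCh38.p14 RefSeq start, against 5.62% of 18635 in a GRCh37 annotation, so positions are given as GRCh38. The counting tool, annotation and use of strand are not given in the sources used here. Only 78.44% to 79.84% of low values were whole reads within 0.02 of a step, so no count model was used. In R 4.3.3, limma 3.58.1 (intensity trend, two-sided) was fitted to log2(CPM + 1) of all 9 libraries, and the procedure was tested on simulated data. Ratios used exact permutation tests. Lengths came from canonical transcripts of the GRCh37 annotation, and promoters from RefSeq. The regulators and lists were chosen with earlier results of these data known. Named from each list were the 3 genes with the smallest p past the threshold in each comparison with siCTR and 5 CPM or more on average. Numbered libraries of siCTR and each knockdown deviated together (correlations of 0.102 to 0.266 in all 6 pairs), while 1 of 3 siMYCN and siHAND2 pairs did not (-0.129). The labels give no source for the numbers, and the main fit and the main ratio tests treat the libraries as unpaired. With a replicate block, given as an alternative, PTBP1 after siMYCN and NOVA2 after siHAND2 passed as well. Alternatives were other pseudocounts (0.1 and 5), filters, scalings and models, a replicate block and leaving out each library, 18 fits in all. KHDRBS2, ESRP1, HPS1, KCNJ6, NRN1 and CD3E were not analysed here. Some genes of the lists that the rule selected are counted but not reported here by name.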

Additional observations from a re-analysis of the deposited data

How the results depend on the processing

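The number of regulators past the threshold was 5 to 7 after siMYCN, 2 to 4 after siHAND2 and 3 to 4 between the knockdowns over the 18 alternatives. Under all 18, RBFOX1, RBFOX2, PTBP2 and ELAVL4 kept their call after siMYCN, RBFOX2 and PTBP2 after siHAND2, and RBFOX1, ELAVL3 and NOVA2 between the knockdowns. The siMYCN counts mix directions. Under median-ratio rescaling and quantile normalization ELAVL3 lost its call, and ELAVL2 and PTBP1 passed as lower. Quantile normalization also added NOVA2 as lower after siMYCN (-0.18, limma adjusted p = 0.0438). Of the 36 calls of other genes named by the rule, 32 were kept in every alternative. Rescaling by median ratios moved the median of all genes after siMYCN from 0.06 to 0.007. The replicate block gave 6, 4 and 4 regulators past the threshold, adding PTBP1 after siMYCN (-0.145, adjusted p = 0.0091) and NOVA2 after siHAND2 (0.18, adjusted p = 0.0421). It changed no other call of the regulators, ELAVL1, PTBP3, MYCN, HAND2, REST and RCOR2, and none of the 36 calls named by the rule. Genes that the rule named in only 1 comparison with siCTR were not followed across the alternatives in the other. Examples are CELF3 and APLP2 after siHAND2. The cell type markers and SRRM3 were not followed either. The exact sign-flip permutation test of the ratios over pairs, added after seeing the data, gave p = 0.25 or 0.50 for each. Values near 0 that had not passed the test changed sign. Under median-ratio rescaling these were ELAVL1 after siMYCN (-0.048) and siHAND2 (-0.01), PTBP3 after siHAND2 (-0.016) and PTBP2 between the knockdowns (0.009). Under quantile normalization they were ELAVL1 after siMYCN (-0.049), PTBP3 after siHAND2 (-0.006) and PTBP2 between the knockdowns (0.028). Leaving out 1 library gave ranges of -0.015 to 0.045 for ELAVL1 and -0.055 to 0.037 for REST after siMYCN, and of -0.116 to 0.016 for RBFOX1 and -0.011 to 0.076 for PTBP3 after siHAND2. Between the knockdowns the ranges were -0.013 to 0.061 for ELAVL2, -0.101 to 0.051 for RBFOX3, -0.039 to 0.034 for PTBP2 and -0.011 to 0.048 for ELAVL1. The ELAVL4 to ELAVL1 ratio after siHAND2 ranged from -0.01 to 0.033. The cause of these changes was not tested. Counting error is larger for genes of few CPM, such as NOVA1 and RBFOX3.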
